A study of Mus musculus with 24 samples.

Results

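The genes described here are the MYC network and the ribosome biogenesis machinery that MYC is known to drive, read in blood-forming cells of BAP1 KO and WT mice. BAP1 is a deubiquitinase of the nucleus. The list held 47 genes, chosen by name: the MYC family with its partner MAX, the MXD repressors, nucleolar proteins, small nucleolar RNP (snoRNP) proteins, RNA polymerase I factors, subunit assembly factors and polyamine enzymes. Of the 47, 29 were matched to a named probe and are called members below, among 17741 named genes and 22439 probes in all. The other 18 were not matched to a named probe and are not analysed here: Myc, Mycn, Mycl1, Npm1, Npm3, Nolc1, Mybbp1a, Nop16, Fbl, Nop56, Nop58, Nop14, Bysl, Nob1, Noc4l, Nop2, Noc2l and Odc1. MYC RNA itself was therefore not read, and the network is described through its partners and the machinery alone. Where a gene had several probes, the brightest over the 24 arrays stood for it.

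Total RNA from sorted bone marrow of C57BL/6 mice was hybridised to one-colour (Cy5) arrays in 4 groups. LSK cells from BAP1 KO mice (mice 2 and 4) and BAP1 WT mice (mice 1 and 3) were lineage-negative, Sca1-positive and Kit-positive, the gate enriched for hematopoietic stem cells. Myeloid progenitors, which were lineage-negative, Sca1-negative and Kit-positive, came from BAP1 KO mice (mice 7 and 8) and BAP1 WT mice (mice 5 and 6). With 3 arrays per mouse, each group rested on 2 mice, and no mouse gave both populations. Per the labels' protocols, the deletion was induced throughout the body by tamoxifen; the Cre driver, the ages and the state of the allele in the sorted cells are not stated.

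MYC binds DNA as a dimer with MAX at the E-box, a short palindromic element, and MXD proteins take MYC's place on MAX and repress the same promoters. Ribosome production starts in the nucleolus, where RNA polymerase I transcribes the precursor of ribosomal RNA. SnoRNPs then guide its cleavage and chemical modification, and assembly factors build the small and the large subunit around it. Blood stem cells are known for low protein synthesis and committed progenitors for higher growth, and MYC is known as a driver of the passage between these states.

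All values are the deposited log2 expression values, averaged over the 3 arrays of a mouse. Mouse means were compared with limma (Benjamini-Hochberg adjustment across the 22439 probes), and a gene is said to have passed the test, risen or fallen where its adjusted p was under 0.05. The median correlation across probes was 0.994 between arrays of a mouse and 0.987 between mice of a group. Of 8 LSK markers 6 were higher in LSK cells in each genotype, and of 10 myeloid progenitor markers 6 were lower, so the arrays matched the labelled gates on these genes. The Bap1 probe was not lower in KO mice (log2 change 0.30 ± 0.13, SE, adjusted p = 0.246, mean over both populations), and where it lies relative to the deleted part is not known, so it does not check the genotype labels. A signal of Kdm5d, a gene of the Y chromosome, was present in mouse 1 (LSK WT, 7.88) and mouse 5 (myeloid progenitor WT, 8.15) and stood at 5.93 to 6.02 in the other mice. In bulk RNA of this kind, fewer cells of a type and less RNA per cell cannot be told apart.

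Max, the dimer partner of both MYC and the MXD proteins, was the least stable member. It read 6.28 and 8.17 in LSK KO mice and 7.33 and 7.66 in LSK WT mice, against 8.84 and 7.34 in myeloid progenitor KO mice and 8.55 and 8.72 in myeloid progenitor WT mice. The KO mice of each population spread wider than the distance between genotypes, and arrays of a single mouse differed by an SD of 0.712. Its KO minus WT change was -0.27 ± 0.78 in LSK cells and -0.54 ± 0.78 in myeloid progenitors (SE, adjusted p = 0.926 and 0.931), with intervals that reached far past 2-fold in both directions.

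The 4 MXD repressors, which bind MAX and silence E-box genes, showed no change that passed the test, and 3 of them had both LSK KO mice below both LSK WT mice, where 20.9% of all named genes did. Mxd4 read 5.97 and 6.11 in LSK KO mice and 6.90 and 6.32 in LSK WT mice, a change of -0.57 ± 0.29 (SE, adjusted p = 0.412). In myeloid progenitors Mxd4 read 6.91 and 6.83 in KO mice and 7.20 and 6.40 in WT mice, so the KO values lay within the WT range. Mxd3 read 6.45 and 6.58 in LSK KO mice and 6.88 and 6.59 in LSK WT mice, and the nearest mice were almost level. Mxd1 read 9.95 and 9.99 in LSK KO mice and 10.27 and 10.11 in LSK WT mice (change -0.22 ± 0.20, adjusted p = 0.686). The dimmer probe of Mxd1 went the other way, with 9.15 and 9.63 in LSK KO mice and 8.90 and 8.86 in LSK WT mice, so no direction can be given for this gene. Mxi1, the last of these repressors, stayed between 6.06 and 6.17 in all 8 mice. Mxd3, Mxd4 and Mxi1 lay below the median probe mean of 7.2, as did Nhp2 among the other members, where small differences are hard to measure.

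The E-box was looked for in the promoters of the members, because MYC, MAX and the MXD proteins share it. Promoter windows of 300 bases, from 250 before to 50 after the annotated start, were taken from RefSeq (GRCm38.p6) and matched 25 of the 29 members; Rrp12, Bop1, Rrs1 and Srm had no window. The letters CACGTG, which read the same on both strands, stood in 7 of the 25 (28%): Max, Mxd4, Rrn3, Wdr43, Tsr1, Utp20 and Pes1. They stood in 9.95% of the 13980 array genes with a window, in 7.15% of all 32851 windows, and in 11 of 56 (19.6%) other ribosome biogenesis genes with one. This is a description of the letters, not of binding. The windows that follow run in the direction of the gene with CACGTG in capitals, and motif positions are those of its first base, counted from the start site as 0. Max (position -3), Pes1 (2) and Wdr43 (17) hold the motif close to the start, and Rrn3 is the single member with 2 (-215 and -48). None of the 7 members with the motif passed the test in any contrast below on its brightest probe, with the values as deposited. Of all named genes 0.062% to 24.9% passed, depending on the contrast. With so few genes these counts show no relation of motif and calls, which was not tested. Of the members that passed, Ubtf, Rrp9, Dkc1, Gar1, Wdr74 and Ddx18 had a window, and none of these held the motif. Rrp9, which differed between populations, is shown as an example of them.
Max promoter, chr12:76962199-76962498, minus strand: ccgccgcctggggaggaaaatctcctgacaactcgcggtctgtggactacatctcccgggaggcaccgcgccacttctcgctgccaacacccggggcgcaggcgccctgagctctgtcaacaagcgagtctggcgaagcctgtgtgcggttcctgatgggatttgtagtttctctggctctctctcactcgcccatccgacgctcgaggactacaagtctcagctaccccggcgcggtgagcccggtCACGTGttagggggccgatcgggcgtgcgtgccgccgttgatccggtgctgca
Rrn3 promoter, chr16:13780449-13780748, plus strand: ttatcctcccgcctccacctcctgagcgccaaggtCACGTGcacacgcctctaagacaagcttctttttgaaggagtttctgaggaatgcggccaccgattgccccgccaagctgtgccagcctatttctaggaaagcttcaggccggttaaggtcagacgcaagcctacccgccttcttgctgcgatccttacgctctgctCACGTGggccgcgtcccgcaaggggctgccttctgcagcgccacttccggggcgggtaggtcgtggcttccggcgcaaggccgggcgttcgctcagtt
Pes1 promoter, chr11:3963725-3964024, plus strand: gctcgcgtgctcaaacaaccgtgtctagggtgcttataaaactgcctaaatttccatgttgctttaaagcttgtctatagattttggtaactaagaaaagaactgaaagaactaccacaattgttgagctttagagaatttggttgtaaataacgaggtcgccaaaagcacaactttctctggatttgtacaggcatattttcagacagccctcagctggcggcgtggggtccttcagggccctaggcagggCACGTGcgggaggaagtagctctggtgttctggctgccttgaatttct
Wdr43 promoter, chr17:71615965-71616264, plus strand: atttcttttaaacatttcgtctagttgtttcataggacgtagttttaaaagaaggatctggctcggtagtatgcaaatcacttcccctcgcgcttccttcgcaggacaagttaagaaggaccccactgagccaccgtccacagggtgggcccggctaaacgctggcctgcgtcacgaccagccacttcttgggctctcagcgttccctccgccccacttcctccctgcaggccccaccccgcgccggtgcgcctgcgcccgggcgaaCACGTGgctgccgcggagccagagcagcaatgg
Rrp9 promoter, chr9:106477059-106477358, plus strand: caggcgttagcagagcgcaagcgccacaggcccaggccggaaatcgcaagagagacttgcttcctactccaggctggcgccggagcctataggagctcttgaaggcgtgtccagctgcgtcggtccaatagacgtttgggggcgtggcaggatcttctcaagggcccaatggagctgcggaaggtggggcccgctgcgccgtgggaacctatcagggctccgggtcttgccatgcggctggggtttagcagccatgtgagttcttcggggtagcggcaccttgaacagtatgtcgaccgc

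Few of these genes differed between KO and WT mice beyond the spread between mice. In LSK cells 0 of 29 members passed the test of KO minus WT, where 4.64% of all named genes did, and 3 had an unadjusted p under 0.05 (Rrp9, Ubtf and Rrp12), where 16.6% of all named genes did. In myeloid progenitors 0 of 29 passed, where 2.64% of all named genes did, and 1 had an unadjusted p under 0.05 (Ubtf), where 11.4% did. Over the mean of both populations 1 of 29 passed, Ubtf, which was higher in KO mice. Of all named genes 7.95% passed in this contrast and 3.09% upwards, so 1 in 29 is near the upward background. In the same contrast 4 members had an unadjusted p under 0.05, where 19.5% of all named genes did, and 22 of 29 were above 0 (54.1% of all named genes). The difference between the KO minus WT changes of the populations passed for 0 of 29 members, where 0.062% of all named genes passed, and 0 had an unadjusted p under 0.05 (6.35% of all named genes).

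**Figure D1:**
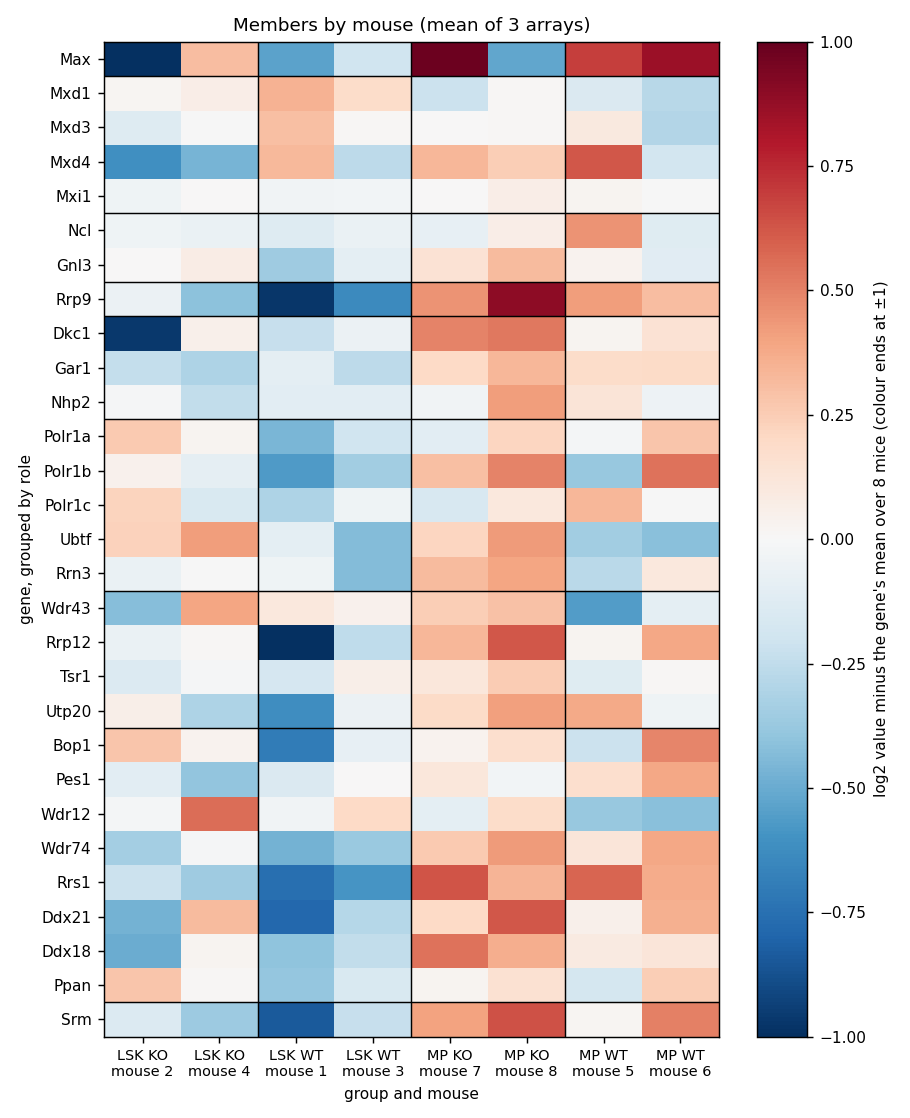
Each row is a member, grouped by role from Max at the top to Srm at the bottom, and each column a mouse; colour is the log2 value of the mouse (mean of 3 arrays) minus the gene's mean over the 8 mice, and the colour scale ends at ±1, with values past an end in that end's colour. The 4 myeloid progenitor mice on the right are mostly above the gene's mean for ribosome biogenesis members, and mouse 1 among the LSK WT mice is the lowest column for many of them.

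Most members nevertheless stood above 0 in KO minus WT, by amounts near the spread between mice. In LSK cells the median change of the 29 members was 0.20 on the log2 scale, where that of all named genes was 0.02, and 19 of 29 were above 0 (54.5% of all named genes). In myeloid progenitors the median was 0.14 against 0.00, with 23 of 29 above 0 (50.5% of all named genes). Averaged over the 23 ribosome biogenesis members, the level was 11.36 and 11.45 in LSK KO mice and 11.08 and 11.27 in LSK WT mice, and 11.65 and 11.81 in myeloid progenitor KO mice and 11.49 and 11.60 in myeloid progenitor WT mice. KO mice were above WT mice in both populations on this average, but in each population the nearest KO and WT mice lay closer together than the WT mice did to each other. Mouse 1 was below mouse 3 in 19 of the 23 genes, where 51.8% of all named genes were lower in mouse 1. Among myeloid progenitor KO mice, mouse 7 was likewise below mouse 8 in 20 of the 23 (49.1% of all named genes). The median change of the 29 members in LSK cells was 0.01 without mouse 1 and 0.08 without mouse 4, against 0.20 with all mice. That of all named genes was 0.01 in each of these 2 fits, so without mouse 1 the members did not differ from it. Mouse 1 is also one of the mice with a Kdm5d signal, and without both of those the median change over both populations was 0.09 in place of 0.20.

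Both LSK KO mice lay above both LSK WT mice for 11 of 29 members, where 25.7% of all named genes did so, and below for 3 (20.9% of all named genes). In myeloid progenitors the same held for 10 members above (20.3%) and 1 below (20.8%), Pes1. Gnl3, Rrp9 and Ubtf were above in both populations (3 of 29, where 8.27% of all named genes were). The 95% intervals stayed within 2-fold in both directions for 21 of 29 members in LSK cells, for 25 in myeloid progenitors and for 28 over the mean of both, the exception there being Max. With 2 mice per group the standard errors of the members ran from 0.05 to 0.78, with a median of 0.22.

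**Figure D2:**
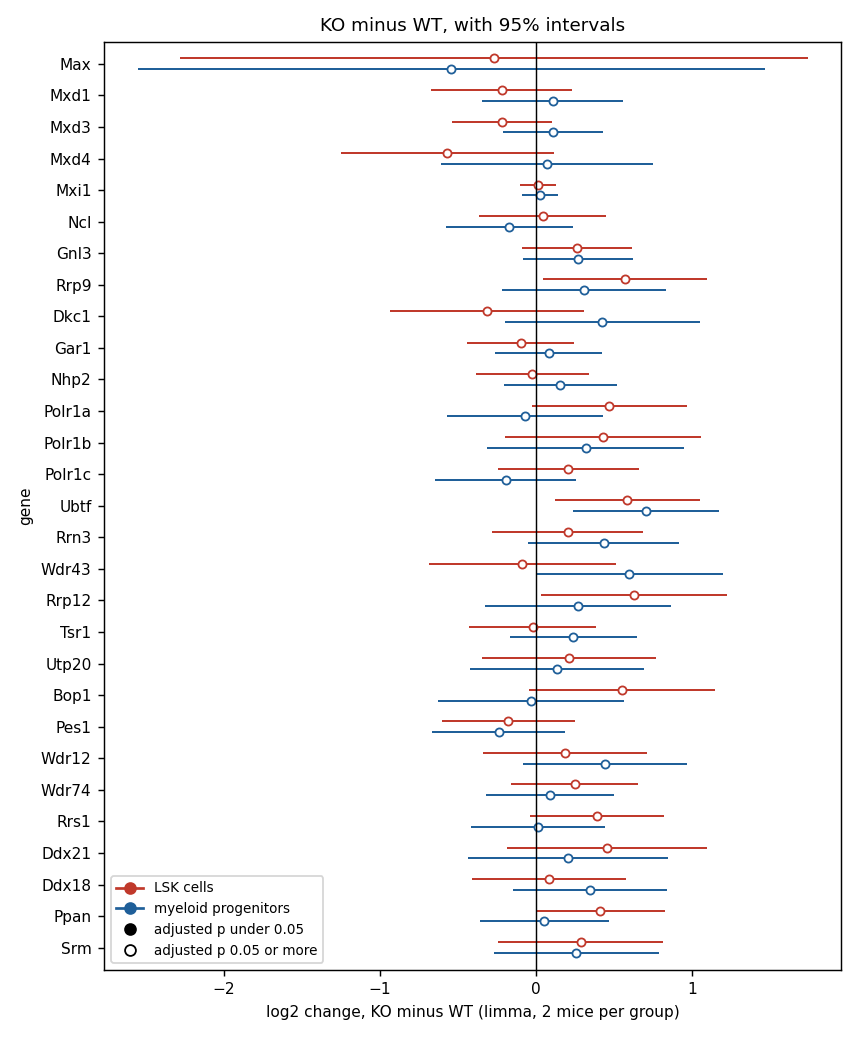
Points are KO minus WT log2 changes of the 29 members in LSK cells (upper point of each pair) and in myeloid progenitors (lower point), with 95% limma intervals (2 mice per group); open points have an adjusted p of 0.05 or more. All 58 points are open, most lie right of 0, and the intervals of Ubtf lie right of 0 in both populations.

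Ubtf, the factor UBF that covers ribosomal DNA and keeps it open for RNA polymerase I, was the member that rose. It read 10.81 and 11.00 in LSK KO mice and 10.49 and 10.15 in LSK WT mice. The myeloid progenitor values were 10.80 and 11.01 in KO mice and 10.24 and 10.17 in WT mice. All 4 KO mice thus lay above all 4 WT mice. This held for no other member, and a share of 1 in 29 is near the 3.29% of all named genes. The change was 0.59 ± 0.21 in LSK cells (adjusted p = 0.18), 0.71 ± 0.21 in myeloid progenitors (adjusted p = 0.15) and 0.65 ± 0.15 over both (SE, 1.56-fold, adjusted p = 0.0237). The call ended when mouse 3, 5, 6, 7 or 8 was left out, with changes of 0.56 to 0.70 and adjusted p between 0.0513 and 0.132. It also ended without both Kdm5d mice (0.75, adjusted p = 0.0689).

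The other RNA polymerase I genes had smaller differences. Polr1b, a core subunit of the enzyme, read 9.64 and 9.51 in LSK KO mice and 9.04 and 9.26 in LSK WT mice, a change of 0.43 ± 0.29 (SE, adjusted p = 0.538). In myeloid progenitors Polr1b read 9.91 and 10.10 in KO mice and 9.22 and 10.15 in WT mice, so the groups overlapped. Polr1a, the largest subunit, had a KO minus WT difference of 0.47 ± 0.23 in LSK cells and -0.07 ± 0.23 in myeloid progenitors. Polr1c, a subunit shared with RNA polymerase III, had differences of 0.21 ± 0.21 and -0.19 ± 0.21 in the same order of populations. Rrn3, which brings the polymerase to the promoter, had differences of 0.20 ± 0.22 in LSK cells and 0.43 ± 0.22 in myeloid progenitors. None of these passed the test in either population.

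Among nucleolar and snoRNP proteins, Gnl3 and Rrp9 stood higher in KO mice of both populations without passing the test. Gnl3 (nucleostemin), a nucleolar GTPase abundant in stem and dividing cells, read 14.45 and 14.52 in LSK KO mice and 14.09 and 14.34 in LSK WT mice. In myeloid progenitors Gnl3 read 14.59 and 14.76 in KO mice and 14.48 and 14.33 in WT mice, a change over both populations of 0.27 ± 0.11 (SE, adjusted p = 0.231). Rrp9, a protein of the U3 snoRNP that directs early cleavage of the ribosomal RNA precursor, read 9.0 and 8.65 in LSK KO mice and 8.08 and 8.42 in LSK WT mice. Its myeloid progenitor values were 9.51 and 9.95 in KO mice and 9.48 and 9.37 in WT mice, where the nearest mice were almost level. The Rrp9 change over both was 0.44 ± 0.17 (SE, adjusted p = 0.177). Ncl (nucleolin), which binds ribosomal RNA and its genes, read 14.95 and 14.93 in LSK KO mice and 14.87 and 14.93 in LSK WT mice, a difference under 0.1. Myeloid progenitors read 14.92 and 15.06 in KO mice and 15.45 and 14.88 in WT mice, and the groups overlapped.

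The box H/ACA snoRNPs convert uridines of ribosomal RNA to pseudouridine, and Dkc1 is their enzyme. Dkc1 read 11.20 and 12.21 in LSK KO mice and 11.94 and 12.11 in LSK WT mice, so that a single KO mouse was far below the rest. In myeloid progenitors Dkc1 read 12.66 and 12.70 in KO mice and 12.20 and 12.31 in WT mice, with no overlap and a change of 0.43 ± 0.28 (SE, adjusted p = 0.719). Gar1, a core protein of these particles, read 13.70 and 13.63 in LSK KO mice and 13.85 and 13.69 in LSK WT mice. Its myeloid progenitor values were 14.14 and 14.28 in KO mice and 14.12 and 14.13 in WT mice, and neither difference passed the test. Nhp2, another core protein and a dim probe, read 6.85 and 6.62 in LSK KO mice and 6.76 and 6.76 in LSK WT mice. Myeloid progenitors read 6.83 and 7.29 in KO mice and 6.99 and 6.81 in WT mice, with overlap in both populations.

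No small subunit factor passed the test between genotypes. Rrp12, needed for export and maturation of pre-ribosomal particles, read 11.16 and 11.24 in LSK KO mice and 10.16 and 10.97 in LSK WT mice, a change of 0.63 ± 0.27 (SE, adjusted p = 0.282). Without mouse 1 it was 0.22. Rrp12 read 11.56 and 11.85 in myeloid progenitor KO mice and 11.26 and 11.62 in myeloid progenitor WT mice. Wdr43, a component of the small subunit processome, read 10.90 and 11.71 in LSK KO mice and 11.42 and 11.36 in LSK WT mice. In myeloid progenitors Wdr43 read 11.56 and 11.61 in KO mice and 10.76 and 11.22 in WT mice, without overlap (change 0.60 ± 0.27, adjusted p = 0.46). Tsr1 and Utp20, both assembly factors of the small subunit, had differences of -0.02 ± 0.18 and 0.21 ± 0.25 in LSK cells and of 0.24 ± 0.18 and 0.14 ± 0.25 in myeloid progenitors.

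Large subunit factors and RNA helicases stood above 0 in KO minus WT of LSK cells in 7 of 8 genes (54.5% of all named genes), with Pes1 as the exception. In myeloid progenitors 6 of 8 did (50.5% of all named genes). The medians were 0.32 in LSK cells and 0.07 in myeloid progenitors, and none of the 8 passed the test. Ddx21, a helicase that links RNA polymerase I to processing, read 11.63 and 12.42 in LSK KO mice and 11.31 and 11.81 in LSK WT mice. Its myeloid progenitor values were 12.30 and 12.72 in KO mice and 12.15 and 12.45 in WT mice, and the groups overlapped in both populations. Wdr12, which forms the PeBoW complex with Pes1 and Bop1 for large subunit maturation, read 8.76 and 9.34 in LSK KO mice and 8.74 and 8.98 in LSK WT mice. In myeloid progenitors Wdr12 read 8.68 and 8.96 in KO mice and 8.40 and 8.36 in WT mice (change 0.44 ± 0.24, adjusted p = 0.591). Its partner Pes1 had differences of -0.18 ± 0.19 in LSK cells and -0.24 ± 0.19 in myeloid progenitors, and Bop1 of 0.55 ± 0.27 and -0.03 ± 0.27. Rrs1, which helps to place the 5S RNP in the large subunit, read 11.72 and 11.59 in LSK KO mice and 11.18 and 11.35 in LSK WT mice, a change of 0.39 ± 0.20 (adjusted p = 0.374). Myeloid progenitors read 12.57 and 12.28 in KO mice and 12.52 and 12.31 in WT mice. Ddx18, Ppan and Wdr74, all large subunit factors, had differences of 0.09, 0.41 and 0.25 in LSK cells and of 0.35, 0.05 and 0.09 in myeloid progenitors.

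Srm, spermidine synthase and the one polyamine enzyme among the members, read 13.11 and 12.88 in LSK KO mice and 12.40 and 13.02 in LSK WT mice. In myeloid progenitors Srm read 13.65 and 13.88 in KO mice and 13.26 and 13.75 in WT mice. The changes of 0.29 ± 0.24 and 0.26 ± 0.24 (SE, adjusted p = 0.644 and 0.84) were smaller than the distance between the WT mice of each population.

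More members differed between the populations than between the genotypes, which also held for all named genes. The members that passed were lower in LSK cells. In KO mice 4 of 29 members passed the test of LSK minus myeloid progenitor, all lower in LSK cells (Rrs1, Rrp9, Dkc1 and Gar1), where 12.8% of all named genes passed and 5.49% passed downwards. In WT mice 3 of 29 passed, all lower in LSK cells (Rrs1, Rrp9 and Wdr74), where 13.5% passed and 5.46% passed downwards. A share of 3 or 4 in 29 is near those backgrounds for calls in either direction and above the downward ones, and the members were not tested as a set. The median difference of the members was -0.32 in KO mice and -0.34 in WT mice, where those of all named genes were -0.01 and -0.03. Of the 29, 23 were below 0 in KO mice (52.6% of all named genes) and 24 in WT mice (56.4%). Both LSK mice lay below both myeloid progenitor mice for 16 members in KO mice (29.9% of all named genes) and 16 in WT mice (32.4%). When 1 mouse was left out, the median in KO mice ranged from -0.33 to -0.19. Without both Kdm5d mice, which leaves 1 WT mouse in each population, the median in WT mice was -0.37. Fits with 1 mouse in a group cannot settle which members pass. The genotypes' differences between populations were themselves tested above, as the difference of the KO minus WT changes, and no member passed, so the lists of 4 and 3 genes are not shown to differ.

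**Figure D3:**
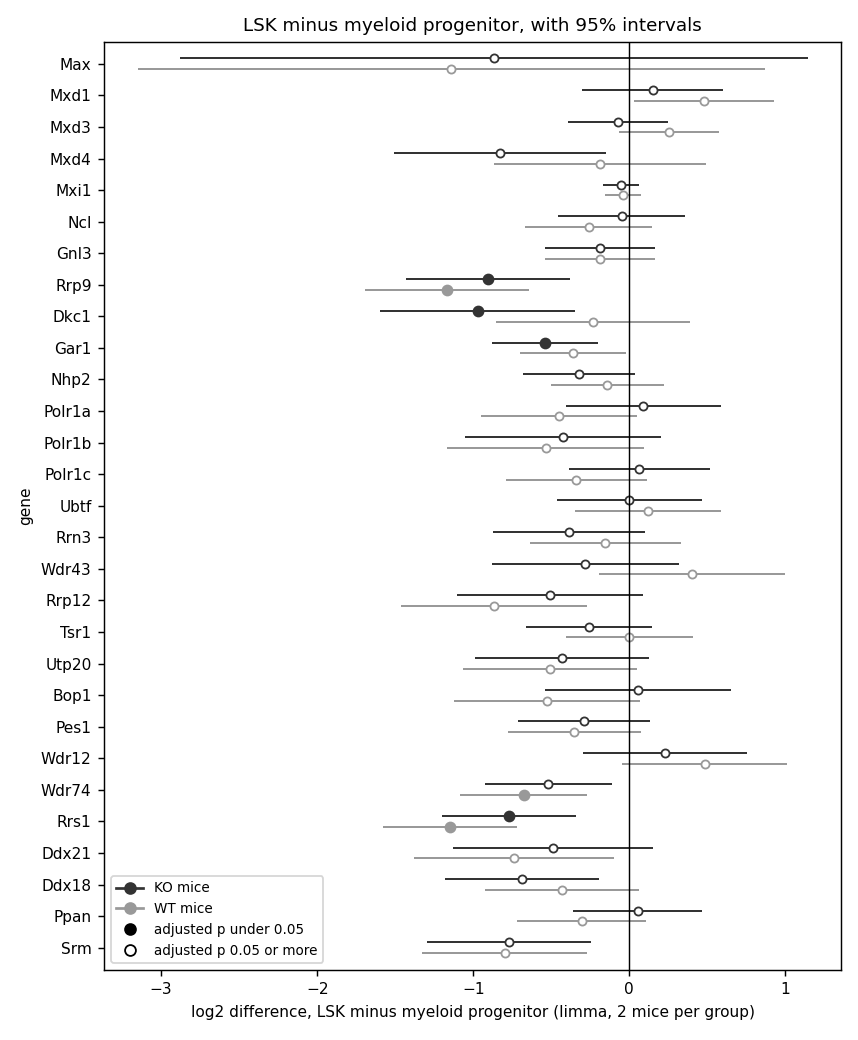
Points are LSK minus myeloid progenitor log2 differences of the 29 members in KO mice (upper point of each pair) and WT mice (lower point), with 95% limma intervals (2 mice per group); filled points have an adjusted p under 0.05. The 7 filled points, for Rrp9, Dkc1, Gar1, Wdr74 and Rrs1, all lie left of 0, and most open points do too.

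The mean of the LSK minus myeloid progenitor differences over both genotypes, a contrast added after these results were seen, used all 8 mice. In it 7 of 29 members passed, all lower in LSK cells: Rrp9, Rrs1, Srm, Rrp12, Wdr74, Ddx18 and Gar1. Of all named genes 24.9% passed and 12% passed downwards. A share of 7 in 29 is near the background for calls in either direction and above the downward one, and the members were not tested as a set. Below 0 were 24 of 29 (55.3% of all named genes). For the 7 that passed and no other member, all 4 LSK mice lay below all 4 myeloid progenitor mice, which held for 12.7% of all named genes. Mxd1 alone had all 4 LSK mice above (10.7% of all named genes), on its brightest probe at 0.31 ± 0.14 (SE, adjusted p = 0.151). Its dimmer probe stood higher in LSK cells by 0.65 ± 0.16 (adjusted p = 0.014).

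Rrs1 and Rrp9 were the members called in both genotypes. Rrs1 read 11.72 and 11.59 in LSK KO mice and 11.18 and 11.35 in LSK WT mice, against 12.57 and 12.28 in myeloid progenitor KO mice and 12.52 and 12.31 in myeloid progenitor WT mice. The difference was -0.77 ± 0.20 in KO mice (adjusted p = 0.0267), -1.15 ± 0.20 in WT mice (adjusted p = 0.00359) and -0.96 ± 0.14 over both (SE, adjusted p = 0.000569). For Rrp9 the lowest myeloid progenitor mouse read 9.37 and the highest LSK mouse 9.0. Its difference was -0.90 ± 0.24 in KO mice (adjusted p = 0.0315), -1.17 ± 0.24 in WT mice (adjusted p = 0.00879) and -1.04 ± 0.17 over both (SE, adjusted p = 0.00121). Over both genotypes each kept its call in 8 of 8 fits that left out 1 mouse, and so did Wdr74 and Srm. Within KO mice the Rrs1 call ended without mouse 2, 4, 7 or 8 (-0.62 to -0.92), and the Rrp9 call without mouse 4, 7 or 8 (-0.69 to -1.12). Within WT mice the Rrp9 call ended without mouse 1 or 5 (adjusted p = 0.0866 and 0.0553), and the Rrs1 call held in 8 of 8 such fits.

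The remaining differences were smaller and less firm. Wdr74, a WD-repeat protein of large subunit maturation, read 12.92 and 13.25 in LSK KO mice and 12.79 and 12.89 in LSK WT mice, against 13.52 and 13.68 in myeloid progenitor KO mice and 13.38 and 13.64 in myeloid progenitor WT mice. It fell by 0.60 on the log2 scale over both genotypes (adjusted p = 0.00671). Srm fell by 0.78 over both (adjusted p = 0.00627), and in single genotypes it missed the threshold, at -0.77 in KO mice (adjusted p = 0.061) and -0.80 in WT mice (adjusted p = 0.0518). Gar1 and Dkc1, partners in the same snoRNP, passed in KO mice at -0.54 ± 0.16 (adjusted p = 0.0449) and -0.97 ± 0.28 (adjusted p = 0.0481). In WT mice they were at -0.36 ± 0.16 and -0.23 ± 0.28 (SE, adjusted p = 0.167 and 0.664). The Dkc1 call held in 1 of 8 fits that left out 1 mouse, and without mouse 2 its KO difference was -0.47 (adjusted p = 0.25). The Gar1 call in KO mice held in 2 of 8 such fits, and the Wdr74 call in WT mice, at -0.68 ± 0.19 (adjusted p = 0.0356), in 2 of 8. Rrp12 fell by 0.69 over both genotypes (adjusted p = 0.0233), a call that ended without mouse 1, 2, 6 or 8 (-0.48 to -0.67). Gar1 fell by 0.45 over both (adjusted p = 0.012), which ended without mouse 3 (-0.41) or mouse 8 (-0.42). Ddx18, a large subunit helicase, fell by 0.56 over both (adjusted p = 0.0253). For Wdr74, Rrp12, Srm and Gar1 the plot of single arrays shows how far the arrays of a mouse spread beside the gap between populations.

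**Figure D4:**
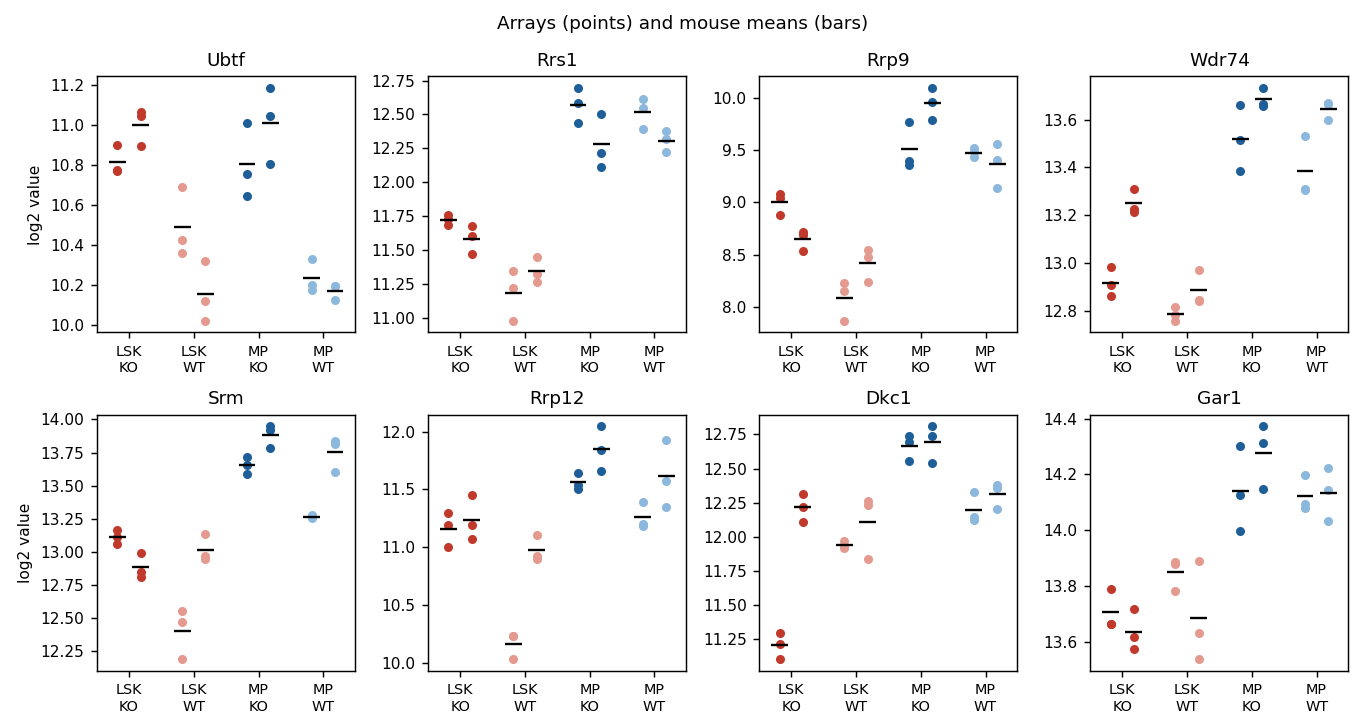
Each panel is a gene, with the log2 value of every array as a point and the mean of each mouse as a bar; groups run LSK KO, LSK WT, myeloid progenitor (MP) KO, MP WT, and axes do not start at 0. Ubtf separates KO from WT in both populations; Rrs1, Rrp9, Wdr74, Srm, Rrp12 and Gar1 separate LSK from MP mice; in Dkc1 mouse 2 lies below all others.

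Not every member was lower in LSK cells, and probes of a gene did not always match. Ubtf differed between the populations by 0.06 ± 0.15 over both genotypes (SE, adjusted p = 0.818). Wdr12 was above 0 in both genotypes, at 0.23 in KO mice and 0.48 in WT mice, without passing. For Wdr43 the brightest probe gave -0.28 in KO mice and 0.40 in WT mice, whereas its dimmer probe fell by 1.15 and 0.96 (adjusted p = 0.00829 and 0.0173). That probe read 7.57 and 7.77 in LSK KO mice and 7.51 and 7.37 in LSK WT mice, against 8.67 and 8.97 in myeloid progenitor KO mice and 8.68 and 8.12 in myeloid progenitor WT mice. The dimmer probe of Ddx21 likewise fell by 1.69 in KO mice and 1.2 in WT mice (adjusted p = 0.00209 and 0.0102), where the brightest gave -0.49 and -0.74 and did not pass. Which transcripts these probes detect is not known here.

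Centring the arrays on 36 ribosomal protein genes set the median LSK minus myeloid progenitor difference of all named genes at 0.17 in KO mice and 0.15 in WT mice. This scaling adds one constant per array and so moves all genes alike; relative to the median of all named genes the members' median was -0.31 in each genotype. Over both genotypes, that scaling gave 8 members lower and 2 higher (Mxd1 and Wdr12), against 7 lower and 0 higher with the values as deposited. Rrp9 and Rrs1 were lower under it too, by 0.86 and 0.78.

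Other genes of the pathway, in lists put together with earlier results of these data known, were set beside all named genes. Over all named genes, 5.49% passed downwards and 12.8% in either direction in KO mice, and 5.46% and 13.5% in WT mice. Of 65 other measured ribosome biogenesis genes, 10 were lower and 1 higher in LSK cells of KO mice, and 8 were lower and 1 higher in those of WT mice. The single higher gene in both was Taf1a, a subunit of the promoter selectivity factor of RNA polymerase I, at 0.95 and 0.94. Of 24 other MYC growth targets, 6 were lower in each genotype and 0 higher, with medians of -0.37 in KO mice and -0.47 in WT mice. Of 36 cytosolic ribosomal protein genes, 7 were lower and 1 higher (Rps15a) in KO mice, and 5 were lower and 1 higher (Rpl22) in WT mice; Taf1a, Rps15a and Rpl22 were chosen after their values were seen. Of 13 RNA polymerase III genes none passed in either genotype, with 4 at an unadjusted p under 0.05 in KO mice and 3 in WT mice. Of all 17741 named genes, 4649 had an unadjusted p under 0.05 in KO mice and 4847 in WT mice. Among 12 genes of MYC cofactors and turnover, 0 passed in KO mice (3 at an unadjusted p under 0.05) and 1 in WT mice, which was higher in LSK cells (Pim1, also chosen after its values were seen), with medians of 0.18 in KO mice and 0.13 in WT mice. Of 13 measured proliferation genes 3 were lower in LSK cells in each genotype, the mitotic genes Aurkb, Ccnb2 and Top2a, and the other 10 did not pass. The mean of the 13 proliferation genes was 10.43 and 11.03 in LSK KO mice and 10.46 and 10.87 in LSK WT mice, against 11.28 and 11.34 in myeloid progenitor KO mice and 11.16 and 11.11 in myeloid progenitor WT mice. The part of the cells' cycling in the members' difference was not tested.

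**Figure D5:**
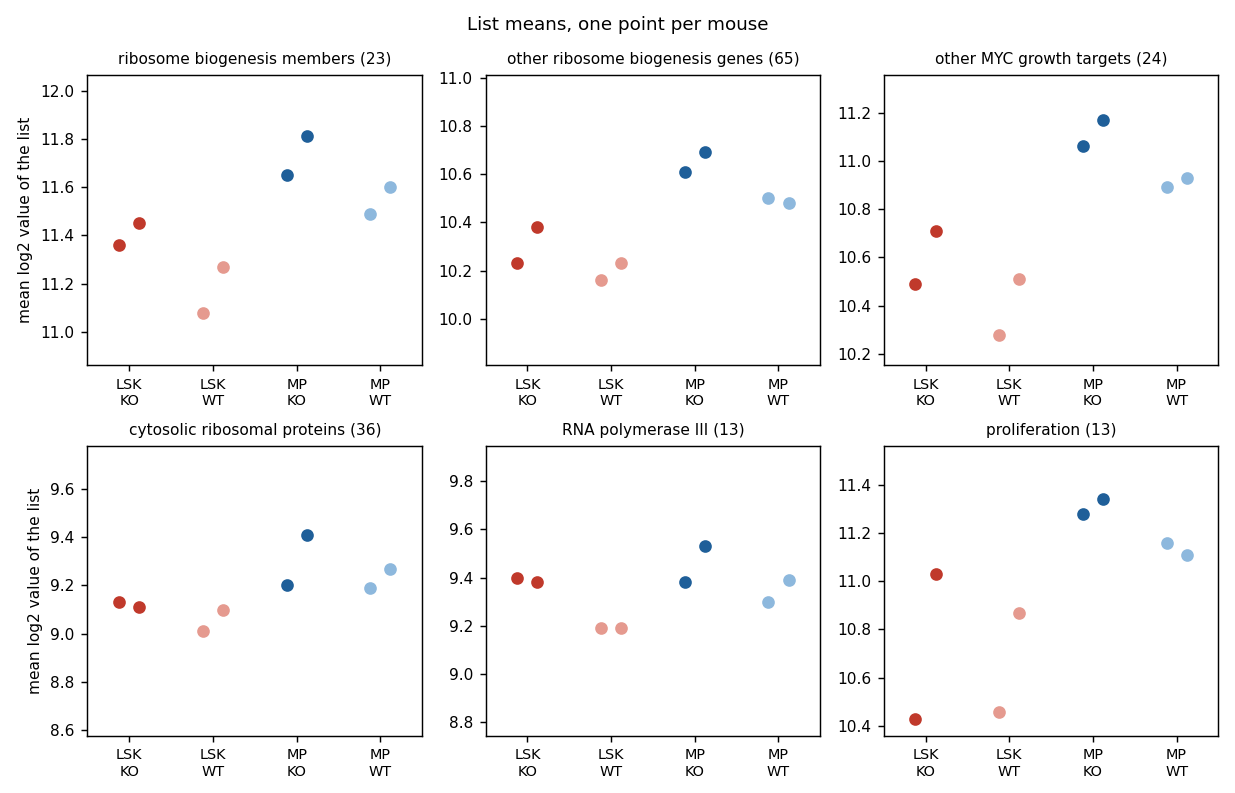
Each panel is a gene list with its number of measured genes, and each point a mouse, as the mean log2 value of the list; groups run LSK KO, LSK WT, myeloid progenitor (MP) KO, MP WT, and axes do not start at 0. In every panel but RNA polymerase III, proliferation included, all 4 LSK points lie below all 4 MP points, and the proliferation points of the LSK groups are spread wide.

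Between genotypes the same lists held few calls. Of all named genes 4.64% passed in LSK cells and 2.64% in myeloid progenitors, and 16.6% and 11.4% had an unadjusted p under 0.05. Of the 65 other ribosome biogenesis genes 0 passed in either population, with 3 in each at an unadjusted p under 0.05 and medians of 0.12 in LSK cells and 0.18 in myeloid progenitors. Above 0 were 44 of the 65 in LSK cells (54.5% of all named genes) and 54 in myeloid progenitors (50.5%). RNA polymerase III genes (13 measured) and proliferation genes (13 measured) likewise held 0 calls in either population, with 0 and 1 genes at an unadjusted p under 0.05 in LSK cells and 0 and 0 in myeloid progenitors. Above 0 were 13 and 7 of them in LSK cells, and 8 and 12 in myeloid progenitors. Over both populations, where 3.09% of all named genes passed upwards, 1 of 36 ribosomal protein genes rose, Rpl5, at 0.75 ± 0.19 (SE, adjusted p = 0.0401), and 1 of 24 MYC growth targets, Mthfd2, a mitochondrial folate enzyme, at 0.84 ± 0.20 (adjusted p = 0.0276). Of 5 other MAX-network genes 1 rose over both, Mlxipl, a glucose-responsive transcription factor (0.38 ± 0.09, adjusted p = 0.0244).

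Among 6 genes that MYC is known to repress, 2 rose in KO mice over both populations, where 3.09% of all named genes rose. In each population alone 1 of the 6 rose, where 4.64% of all named genes passed in LSK cells and 2.64% in myeloid progenitors. Cdkn1a, which encodes the cell cycle inhibitor p21 and is also a p53 target, read 11.68 and 11.06 in LSK KO mice and 9.85 and 9.27 in LSK WT mice. In myeloid progenitors Cdkn1a read 10.86 and 10.98 in KO mice and 9.19 and 9.75 in WT mice. It rose by 1.81 ± 0.29 in LSK cells and 1.45 ± 0.29 in myeloid progenitors (SE, adjusted p = 0.00597 and 0.0257). Ndrg2 rose over both populations by 0.72 ± 0.16 (adjusted p = 0.021), and the other 4 genes of this list did not pass in any KO minus WT contrast. Among 12 genes of MYC cofactors and turnover, Usp28, a deubiquitinase that stabilises MYC, fell by 0.44 on the log2 scale over both populations (adjusted p = 0.0243), and Pim1, a kinase that phosphorylates MYC, rose in myeloid progenitors by 1.36 ± 0.16 (SE, adjusted p = 0.00161). Of these 12 genes 1 rose and 1 fell over both populations, where 7.95% of all named genes passed. In myeloid progenitors 1 of them rose, where 2.64% of all named genes passed.

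Some marker genes of cell types also differed between the genotypes, where 4.64% of all named genes passed in LSK cells, 2.64% in myeloid progenitors and 7.95% over both. In LSK cells 3 of 10 myeloid progenitor markers were higher in KO mice (Elane, Ctsg and Cebpe), and the mean of the 10 was 10.75 and 11.19 in KO mice and 10.09 and 10.80 in WT mice; mouse 1, the lowest for the ribosome biogenesis members, was the lowest here too. In myeloid progenitors the same list held 0 calls (1 gene at an unadjusted p under 0.05), with means of 12.19 and 12.27 in KO mice and 12.16 and 12.43 in WT mice. Of 7 B cell markers 4 were lower in KO mice in each population, with list means of 7.70 and 7.46 in LSK KO mice and 9.33 and 9.39 in LSK WT mice, and 7.73 and 7.64 in myeloid progenitor KO mice and 8.92 and 9.22 in myeloid progenitor WT mice. Over both populations 2 of 3 erythroid markers were lower in KO mice, 3 of 6 monocyte and macrophage markers were lower and 1 higher, and 2 of 6 megakaryocyte markers were higher and 1 lower. Of 5 T and NK cell markers 1 was higher over both, and of 6 granulocyte markers none passed (1 at an unadjusted p under 0.05). Of 8 LSK markers none passed over both (2 at an unadjusted p under 0.05, where 19.5% of all named genes were). In LSK cells the median of these 8 was -0.45, and 4 of 8 had both KO mice below both WT mice (20.9% of all named genes).

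Some markers of other cell types also differed between the populations, where 12.8% of all named genes passed in KO mice and 13.5% in WT mice. Granulocyte markers were higher in LSK cells for 2 of 6 in KO mice and 4 of 6 in WT mice, with list means of 12.07 and 12.04 in LSK KO mice and 12.15 and 11.84 in LSK WT mice, against 11.64 and 11.50 in myeloid progenitor KO mice and 11.33 and 11.18 in myeloid progenitor WT mice. Erythroid markers were higher for 2 of 3 in KO mice and 1 of 3 in WT mice, and monocyte and macrophage markers were lower for 3 of 6 in KO mice and 4 of 6 in WT mice. Of 5 T and NK cell markers 1 was lower in each genotype, 1 of 6 megakaryocyte markers was lower in KO mice, and 1 of 7 B cell markers was higher in WT mice. The part of these cell types in the members' values was not tested.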

How the data were processed

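Total RNA of 24 samples (8 mice, 3 arrays each) was read on one-colour Cy5 arrays. The authors deposited one log2 expression value per probe and array, and limma appears, with no version, in the submitters' processing notes; which background correction and normalization were used is not stated. The sorted values of the arrays differed by at most 0.0451 and their medians lay between 7.17 and 7.18, so no further scaling was applied. Nothing says that the 3 arrays of a mouse are separate samples, so they were averaged and the mouse was the replicate.

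Mouse means were fitted with limma 3.58.1 (lmFit, eBayes with trend and robust, R 4.3.3), all 4 groups in one fit with 4 residual degrees of freedom. P-values were two-sided, adjusted by Benjamini-Hochberg over 22439 probes, with a threshold of 0.05. The fit was also run on simulated mice, with values drawn independently for each probe. Such mice lack shifts shared by many genes of a mouse, so that run does not check the calls made here. Of the probes, 2064 have no gene name here; background shares count 17741 named genes, each by its brightest probe.

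The members and all gene lists were chosen with earlier results of these data known. Per-mouse values are given for all MAX and MXD genes, for other members past the threshold in any of the 6 contrasts of genotype, population and their difference, and for the 2 members of each list with the largest mean KO minus WT change. Other members are given by change or count, and those singled out were chosen after their values were seen, as was the mean over genotypes of the population difference. In other lists, up to 4 genes past the threshold were named. Alternatives covered arrays with the mouse as a block, each mouse left out, the compared groups alone, probe choice, low-signal filters, centring, plain eBayes and a looser threshold. The number of arrays and mice limits the precision.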

Additional observations from a re-analysis of the deposited data

Results flagged for a closer look

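The KO minus WT change of Pim1, which encodes a kinase of MYC and is not a member, differed between the populations in a test of the difference itself. It read 13.86 and 13.78 in LSK KO mice and 14.03 and 13.99 in LSK WT mice, a change of -0.19 ± 0.16 (SE; by limma, adjusted p = 0.645). Myeloid progenitors had Pim1 at 13.50 and 13.41 in KO mice and 12.19 and 12.01 in WT mice, a change of 1.36 ± 0.16 (adjusted p = 0.00161). The difference of these changes, LSK minus myeloid progenitor, was -1.55 ± 0.23 (adjusted p = 0.0424).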

How the results depend on the processing

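The direction of the members' median held in every contrast under each alternative except the difference of the KO minus WT changes, whose median of 0.03 ranged from -0.05 to 0.14 when 1 mouse was left out. For KO minus WT in LSK cells it held only in sign. Without mouse 1, or without both Kdm5d mice, the members' median of 0.01 equalled that of all named genes (0.01). With all arrays and the mouse as a random block, members called were 4 (0 with mouse means) for KO minus WT in LSK cells, 1 (0) in myeloid progenitors, 6 (1) over both, 8 (4) for LSK minus myeloid progenitor in KO mice, 12 (3) in WT mice and 15 (7) over both genotypes. With the array number as a further replicate block the counts were 4, 1, 5, 8, 12 and 15; these numbers name arrays of a mouse and pair no mice across groups, and arrays of a mouse are not separate animals.

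Leaving out 1 mouse gave medians of 0.01 to 0.30 for KO minus WT in LSK cells (0.20 with all mice), 0.11 to 0.25 in myeloid progenitors (0.14) and 0.12 to 0.24 over both (0.20), with 0 to 1 members called over both. For LSK minus myeloid progenitor it gave 0 to 4 calls and medians of -0.33 to -0.19 in KO mice, 1 to 4 calls and -0.42 to -0.23 in WT mice, and 4 to 10 calls and -0.36 to -0.25 over both. Counts were 0 without mouse 7 or 8 and 1 without mouse 2 in KO mice, 1 without mouse 1 in WT mice, and 4 without mouse 8 over both. Without both Kdm5d mice, which leaves 1 WT mouse in each population, the median KO minus WT change was 0.01 in LSK cells and 0.09 over both populations. The median LSK minus myeloid progenitor difference in WT mice was -0.37 in that fit.

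Centring on ribosomal protein genes gave 1 call for KO minus WT in LSK cells, Mxd4 at -0.64 (adjusted p = 0.0056), and medians between populations of -0.14 in KO mice, -0.16 in WT mice and -0.09 over both. Filters at the 25th and 50th percentile of probe means each gave 5 calls between populations in WT mice, and the 50th gave 7 in KO mice. An adjusted p under 0.10 gave 5 in WT and 7 in KO mice. The LSK minus myeloid progenitor difference of Wdr43 over both genotypes was -0.50 (adjusted p = 0.0381) with the mean of its probes in place of 0.06, since its dimmer probe fell. Causes other than fewer mice, fewer probes and the probe used were not tested. Among the other values of single members, 2297 kept direction and call, 109 moved by more than the spread between mice, 101 gained a call and 57 lost one. The contrasts over 4 groups could not be fitted on compared groups alone.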
